A study of Mus musculus with 6 samples.

Results

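Expression of 8 genes of the canonical Wnt pathway was examined in mouse induced pluripotent stem cells (iPSCs), cultured as embryoid bodies and exposed to intermittent compressive force (ICF). The genes were chosen by name, as Axin2, Sp5, Lef1, Nkd1, Wnt3, Ctnnb1, Tcf7l1 and Cdx2, and each symbol was matched to its Ensembl identifier among the 50686 identifiers in the count tables. They comprise targets that the pathway switches on (Axin2, Sp5, Lef1, Nkd1 and Cdx2), a ligand (Wnt3), the effector protein (Ctnnb1) and a repressor (Tcf7l1), so not every member is a target. The cells were reprogrammed from gingival fibroblasts of mice and formed embryoid bodies, which received retinoic acid and were seeded on gelatin. In the ICF group (3 samples) the constructs were loaded at 1.5 g/cm2 and 0.23 Hz for 24 h in medium without serum, and the control group (3 samples) stayed unloaded. All 6 samples therefore share the retinoic acid and the serum-free medium, and no sample without retinoic acid was analysed here. The labels number the donors 1 to 3 in each group, and these numbers are used as replicate numbers. Neither the labels nor the methods give strain, age or number of clones, and the iPSCs had been maintained on feeder cells.

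In the canonical pathway, a Wnt ligand binds Frizzled and LRP receptors at the cell surface and halts a destruction complex built on Axin and APC. Beta-catenin then accumulates, enters the nucleus and binds factors of the TCF/LEF family at target genes, several of which (Axin2, Nkd1) encode feedback inhibitors of the pathway. In mouse pluripotent cells, Tcf7l1 represses pluripotency genes until beta-catenin relieves it, and Wnt3 is needed in the embryo for the primitive streak to form.

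Counts on genes totalled 28711166 to 34194413 in a sample. ICF replicate 3 stood apart: 4 divided 89% of its counts above 0, against 20.3% to 21.5% of those of the other 5 libraries, and it lay at 63.4 on the first principal component, where the other 5 samples lay between -30.1 and 3.9. Pluripotent cell markers summed to 4310 to 5120 CPM (counts per normalized library total of 1000000) in the controls and 3990 to 4420 CPM with ICF, lower with ICF in all 3 same-numbered pairs, with Pou5f1 at a mean of 841 and 817 CPM. Within the list Tdgf1 differed most, at a mean of 722 CPM in the controls and 411 CPM with ICF, followed by Dppa5a at 669 and 546 CPM. A log2 fold change below 0 was seen in 9 of these 12 markers, and their median was -0.10. Markers of primitive and visceral endoderm were also abundant, at 1860 to 2500 CPM in the controls and 2100 to 2510 CPM with ICF, higher with ICF in all 3 pairs. Replicate 3 differed little, at 2500 and 2510 CPM. Most of that sum was Cubn (mean 980 CPM in the controls, 1085 CPM with ICF) and Dab2 (610 and 725.5 CPM). Neither passed edgeR's test (adjusted p = 0.589 and 0.374), though both were called higher with the replicate number as a block. The 2 endoderm markers that passed without the block, Amn and Sox17, were lower with ICF. In such bulk samples, fewer cells of a type cannot be told apart from less RNA per cell.

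Of the 8 members, Lef1 and Axin2 were downregulated with ICF, and none was upregulated. Lef1 fell by 67.1% and Axin2 by 33.1%. The lowest-expressed target, Sp5, was also below the controls in every loaded sample but did not pass the test. Nkd1, Cdx2, Ctnnb1 and Tcf7l1 had overlapping groups and did not pass, and Wnt3 had too few counts to be tested. A gene was tested where its counts passed edgeR's filter on low counts, and called where the adjusted p of edgeR's quasi-likelihood test was under 0.05. With 7 members tested, 2 were called lower, beside 4.38% of the 16729 genes tested, and 0 higher, beside 3.47%. The members were chosen with earlier results of these data known, so these counts describe them and test nothing about the set. None of the 7 was higher at an unadjusted p under 0.05 in edgeR, and DESeq2 also called 0 higher. With the replicate number as a block, however, edgeR called Tcf7l1 higher (adjusted p = 0.00644) and Sp5 lower as well (adjusted p = 0.0264). In that fit 14.6% of all genes tested were called higher and 15.3% lower. Every ICF sample was below every control sample for 3 of the 7 (Lef1, Axin2 and Sp5), beside 15.7% of all genes tested, and above for 0, beside 15.6%. The median log2 fold change of all genes tested was 0.003. Of those 16729 genes, 4277 had an unadjusted p under 0.05 in edgeR, in either direction. DESeq2 called 877 genes higher and 1071 lower over the whole series. These numbers also stand beside the counts of the same kind in the lists that follow.

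The promoters of the 3 genes whose groups did not overlap are shown because TCF/LEF factors bind a short core motif in target promoters. CTTTGAT and CTTTGAA were searched on both strands, from 250 bases before to 50 bases after each annotated start in RefSeq (GRCm38.p6). The members had 12 such windows and 1 held a motif, beside 8.65% of the 32817 windows of all genes. It was the window of Sp5, where CTTTGAT (capitals) began 104 bases before the start, at chr2:70474819-70474825 on the + strand. The sequences are the 250 bases before the start, read 5′ to 3′, of Sp5 (chr2:70474673-70474922, + strand), Axin2 (chr11:108920099-108920348, + strand) and the first of several annotated starts of Lef1 (chr3:131110047-131110296, + strand). No match in Axin2 and Lef1 says only that these letters are not in these windows.
Sp5: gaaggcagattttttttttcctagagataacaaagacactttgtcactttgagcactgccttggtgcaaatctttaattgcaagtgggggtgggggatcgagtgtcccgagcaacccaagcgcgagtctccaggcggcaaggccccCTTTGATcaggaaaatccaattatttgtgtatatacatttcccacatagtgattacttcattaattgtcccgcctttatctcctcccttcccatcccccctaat
Axin2: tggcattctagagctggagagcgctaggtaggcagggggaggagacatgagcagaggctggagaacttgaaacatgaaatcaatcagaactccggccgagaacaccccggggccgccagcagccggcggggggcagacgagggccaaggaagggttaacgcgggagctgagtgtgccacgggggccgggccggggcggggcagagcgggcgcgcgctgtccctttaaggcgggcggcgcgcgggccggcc
Lef1: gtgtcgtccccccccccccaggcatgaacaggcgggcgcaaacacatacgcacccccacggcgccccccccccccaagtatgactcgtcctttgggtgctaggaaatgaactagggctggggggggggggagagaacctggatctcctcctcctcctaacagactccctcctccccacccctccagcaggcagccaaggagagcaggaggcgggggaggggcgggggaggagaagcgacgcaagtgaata

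**Figure D1:**
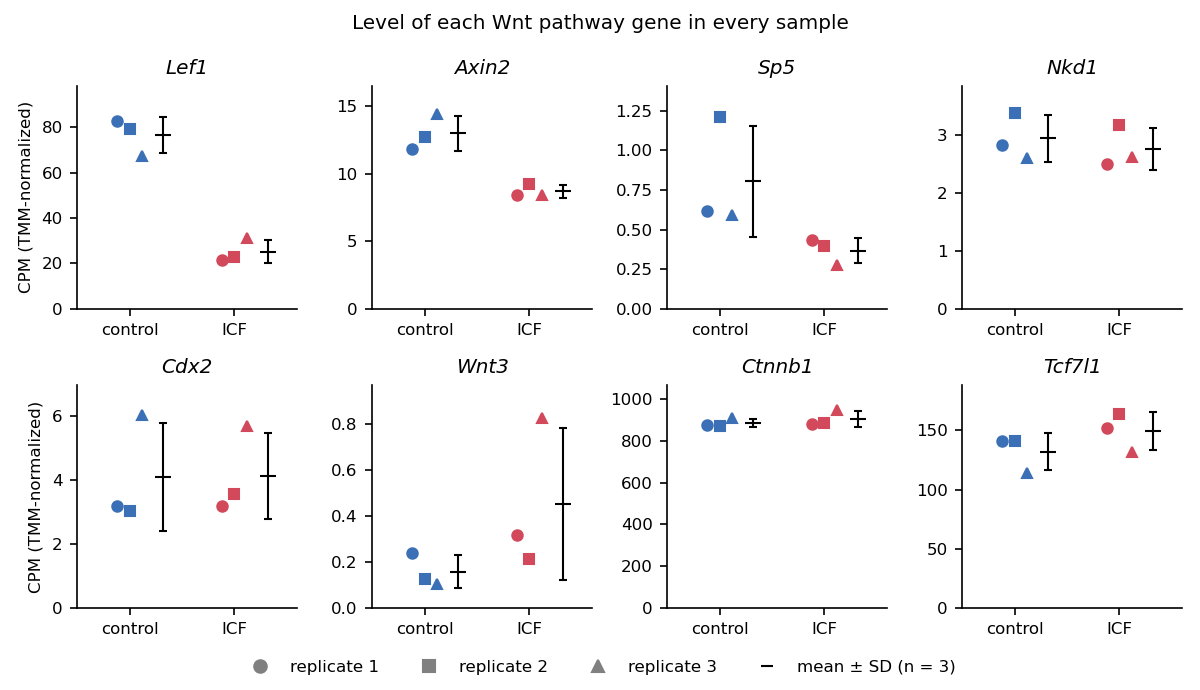
Level of each of the 8 genes in CPM (TMM-normalized, linear axis from 0) in every control and ICF sample; marker shape gives the replicate number and black bars the mean ± SD (n = 3). The ICF samples of Lef1 (21.4 to 31.2 CPM), Axin2 (8.41 to 9.23 CPM) and Sp5 (0.276 to 0.432 CPM) all sit under their controls, and the groups of the other 5 genes overlap.

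Lef1 encodes a high-mobility-group DNA-binding factor that carries beta-catenin to target genes and is itself a target. It lies on chromosome 3 at 131110471-131224356 (GRCm38, + strand). Control replicates 1, 2 and 3 had 82.8, 79.2 and 67.5 CPM. The ICF replicates had 21.4, 23.0 and 31.2 CPM. The groups were far apart, with the highest loaded sample under the lowest control. The control mean was 76.5 ± 8.03 CPM and the loaded mean 25.2 ± 5.25 CPM (SD, n = 3 each). The log2 fold change was -1.60 ± 0.19 (SE), with an adjusted p of 0.000693 in edgeR's quasi-likelihood test. The difference between same-numbered samples was -1.95, -1.78 and -1.11 on the log2 scale, smallest in replicate 3. Without any one of the 6 samples the log2 fold change lay between -1.78 and -1.49 and passed each time. With replicate 3 of both groups left out it was -1.87 (edgeR adjusted p = 1.69e-14). An antisense gene, Gm43352, covers 13.7% of the exon bases of Lef1 and had 0 to 12 counts per sample, against 744 to 2481 for Lef1, and whether the counting used strand is not stated in the sources used here.

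Axin2 encodes a scaffold of the beta-catenin destruction complex and is widely used as a readout of canonical Wnt signaling. It lies on chromosome 11 at 108920349-108950783 (+ strand). The control replicates had 11.8, 12.7 and 14.4 CPM, and the ICF replicates 8.41, 9.23 and 8.42 CPM. All 3 loaded samples were below all 3 controls. The control mean was 13.0 ± 1.33 CPM and the loaded mean 8.69 ± 0.471 CPM (SD, n = 3 each). The log2 fold change was -0.58 ± 0.095 (SE), with an adjusted p of 0.0183 in edgeR's quasi-likelihood test. The same-numbered samples differed by -0.49, -0.46 and -0.78 on the log2 scale. The call was lost without control replicate 2 (edgeR adjusted p = 0.086) and without ICF replicate 1 (edgeR adjusted p = 0.0858), while the log2 fold change without any one sample stayed between -0.65 and -0.50. With replicate 3 of both groups left out it was -0.48 and passed (edgeR adjusted p = 0.00132).

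Sp5 encodes a zinc finger factor of the Sp family that is directly activated by beta-catenin in early mouse embryos and restrains other Wnt targets. It lies on chromosome 2 at 70474923-70477729 (+ strand). It was sparsely counted, with 18, 38 and 17 counts in control replicates 1, 2 and 3 and 15, 13 and 8 counts in the ICF replicates. These were 0.616, 1.21 and 0.591 CPM in the controls and 0.432, 0.393 and 0.276 CPM with ICF. No loaded sample reached a control, and control replicate 2 had the highest level. The lowest was ICF replicate 3, the library with counts mostly in steps of 4. With its counts divided by 4, the log2 fold change of Sp5 was -1.03 and did not pass (edgeR adjusted p = 0.118). The control mean was 0.807 ± 0.352 CPM and the loaded mean 0.367 ± 0.0811 CPM (SD, n = 3 each). The log2 fold change of -1.12 ± 0.38 (SE) did not pass (edgeR's quasi-likelihood test, adjusted p = 0.109). With the replicate number as a block, the log2 fold change was -1.10 and passed (edgeR adjusted p = 0.0264), and with replicate 3 of both groups left out it was -1.15 and passed (edgeR adjusted p = 0.0212). Without control replicate 2 the log2 fold change was -0.70, the smallest of those with 1 sample left out.

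Nkd1 encodes naked cuticle 1, an inhibitor that binds Dishevelled and is induced by the pathway it restrains, and lies on chromosome 8 at 88521354-88594884 (+ strand). The control replicates had 2.84, 3.39 and 2.61 CPM, and the ICF replicates 2.50, 3.18 and 2.62 CPM. The groups overlapped nearly throughout, with replicate 2 the highest in each. The log2 fold change was -0.09 ± 0.15 (SE) and did not pass (edgeR adjusted p = 0.79).

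Cdx2 encodes a caudal-type homeobox factor of trophectoderm and posterior embryo that responds to Wnt signals, and lies on chromosome 5 at 147300805-147307270 (- strand). The control replicates had 3.18, 3.03 and 6.02 CPM, and the ICF replicates 3.17, 3.54 and 5.66 CPM. Replicate 3 was the high sample in both groups, at 1.94 times the mean of replicates 1 and 2 in the controls and 1.69 times with ICF. The log2 fold change was 0.01 ± 0.41 (SE) and did not pass (edgeR adjusted p = 0.987). Beside it, the trophectoderm markers summed to 399, 411 and 521 CPM in control replicates 1, 2 and 3 and to 389, 410 and 567 CPM in the ICF replicates, also highest in replicate 3. None of the 10 trophectoderm markers passed edgeR's test (1 higher and 1 lower at an unadjusted p under 0.05, and 0 in DESeq2). With the replicate block 3 were higher and 2 lower, beside 14.6% and 15.3% of all genes tested. The part of these markers in the Cdx2 level was not tested.

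Among the signaling components, Ctnnb1 (beta-catenin) had the highest level per length. It lies on chromosome 9 at 120929216-120960507 (+ strand). The control replicates had 877, 872 and 908 CPM, and the ICF replicates 879, 884 and 948 CPM. The groups overlapped, and the log2 fold change was 0.03 ± 0.04 (SE, edgeR adjusted p = 0.79), with values between 0.0 and 0.05 when 1 sample was left out. On the opposite strand, Ulk4 covers 14.6% of its exon bases at 124 to 177 counts per sample. These are levels of mRNA, and the amount or place of the beta-catenin protein was not measured in these files.

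Tcf7l1 encodes the TCF/LEF factor that acts mainly as a repressor in pluripotent cells, and lies on chromosome 6 at 72626378-72789254 (- strand). The control replicates had 141, 141 and 114 CPM, and the ICF replicates 152, 164 and 132 CPM. ICF replicate 3 lay under control replicates 1 and 2, so the groups overlapped, yet each loaded sample was above the control of its number, by 0.11, 0.22 and 0.21 on the log2 scale. The log2 fold change was 0.18 ± 0.14 (SE) and did not pass (edgeR adjusted p = 0.323). With the replicate number as a block it was 0.18 and passed (edgeR adjusted p = 0.00644), as it did at 0.16 with replicate 3 of both groups left out (edgeR adjusted p = 0.0202). Under this paired fit 3 members were called lower (Lef1, Axin2 and Sp5) and 1 higher (Tcf7l1), beside 15.3% of genes lower and 14.6% higher.

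Wnt3 encodes a secreted Wnt ligand and lies on chromosome 11 at 103774150-103817957 (+ strand). It had 7, 4 and 3 counts in control replicates 1, 2 and 3 and 11, 7 and 24 counts in the ICF replicates, or 0.24, 0.128 and 0.104 CPM against 0.317, 0.212 and 0.828 CPM. ICF replicate 3 was the high sample, the one with counts in steps of 4, and without it the groups still overlapped. At 0.0864 to 0.104 CPM for 3 counts in a sample, a change in Wnt3 was not resolved at this depth. With the filter relaxed to genes with any count, the log2 fold change was 1.47 and did not pass (edgeR adjusted p = 0.166).

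**Figure D2:**
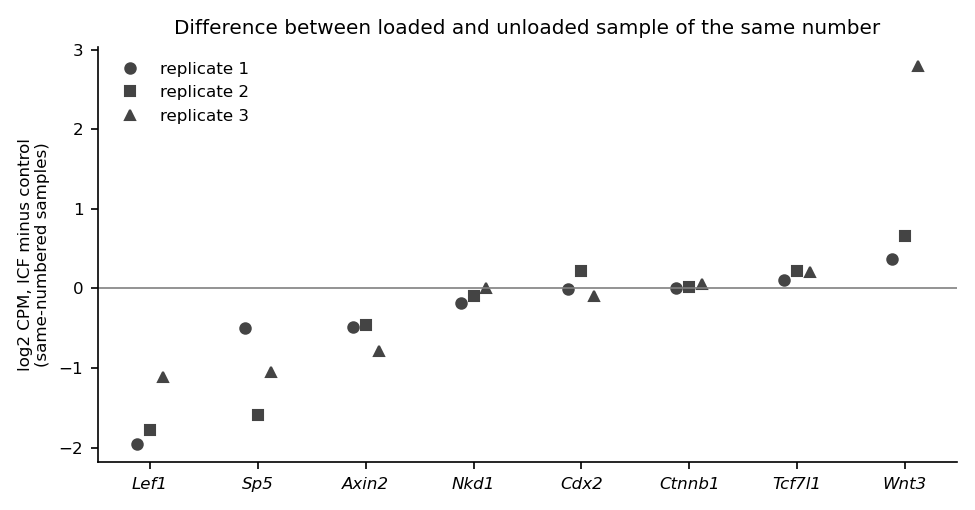
Difference in log2 CPM between the ICF and the control sample of the same replicate number (y axis, 0 is no difference) for each of the 8 genes; each marker is 1 pair. All 3 pairs lie below 0 for Lef1, Sp5 and Axin2 and above 0 for Tcf7l1 (0.11 to 0.22) and Wnt3, where replicate 3 is at 2.80.

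An exact two-sided permutation test of each member alone, over 3 samples against 3, gave p = 0.1 for Lef1, Axin2 and Sp5, which is the smallest p that the design allows. It gave p = 0.6 for Nkd1, 0.9 for Cdx2, 0.5 for Ctnnb1, 0.3 for Tcf7l1 and 0.2 for Wnt3 in the same exact permutation test.

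Levels of different genes were compared per length, as CPM divided by exon length in kilobases (RPKM). In the controls the mean levels ran from Ctnnb1 at 171 RPKM through Tcf7l1 at 33.6, Lef1 at 8.7, Axin2 at 2.36, Cdx2 at 1.8, Nkd1 at 0.646 and Sp5 at 0.384 to Wnt3 at 0.0511 RPKM, 3350-fold from highest to lowest. Axin2 (2.14 to 2.62 RPKM) and Cdx2 (1.34 to 2.66 RPKM) overlapped in the controls, as did Nkd1 (0.572 to 0.743 RPKM) and Sp5 (0.282 to 0.578 RPKM). With ICF, Lef1 was at 2.87 RPKM. Axin2 at 1.58 RPKM then had a lower mean than Cdx2 at 1.82 RPKM, again with overlapping samples.

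**Figure D3:**
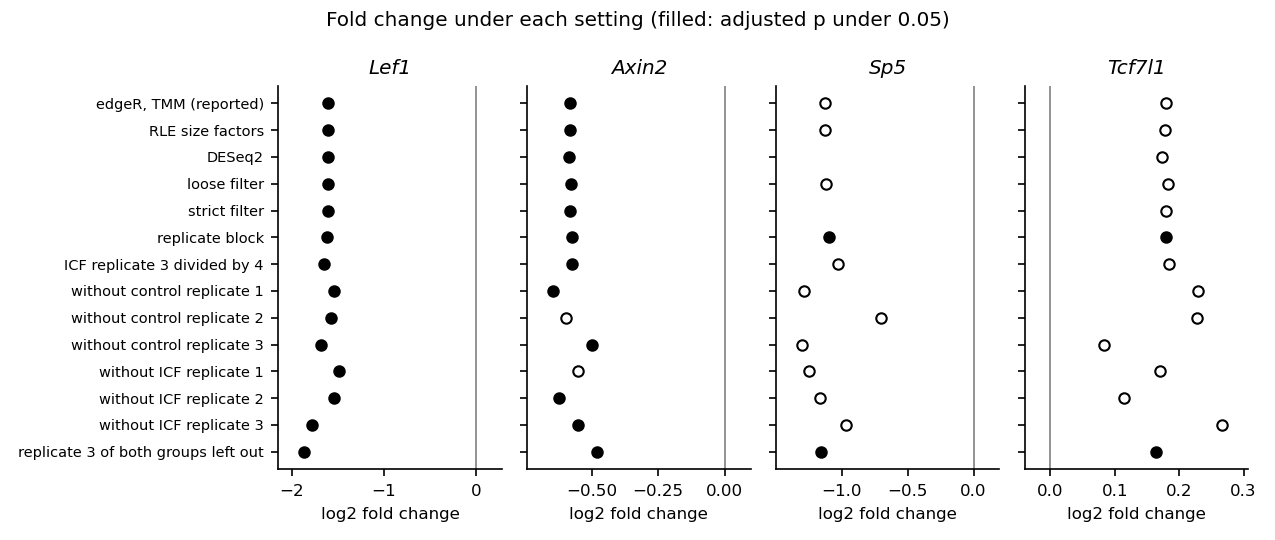
Log2 fold change of Lef1, Axin2, Sp5 and Tcf7l1 (x axis, ICF against control, own scale for each gene) under the reported edgeR fit and 13 other settings; filled points have an adjusted p under 0.05. Lef1 passes in all of them, Axin2 in all but those without control replicate 2 and without ICF replicate 1, and Sp5 and Tcf7l1 only with the replicate block and with replicate 3 of both groups left out; Sp5 has no adjusted value in DESeq2 and too few counts for the strict filter.

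The other genes of the pathway were followed in 7 lists by role, 123 genes in all, of which 103 were tested. Of these, 9 rose and 5 fell, beside 3.47% of all genes tested called higher and 4.38% called lower. The median log2 fold change of the 103 was 0.05. With the replicate number as a block, edgeR called 23 higher and 11 lower, beside 14.6% and 15.3% of all genes tested. The blocked counts of each list are given beside its own, and the same shares apply to each list. Some genes, Dkk1 among them, stand both among the other targets and in another list, so the counts of the lists overlap. Porcn and Ccn4 passed without each of the 6 samples in turn, and the other 12 called genes did not pass without control replicate 1 and did not pass without control replicate 2 (edgeR adjusted p of up to 0.193 over all settings).

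Of 25 other canonical targets, 21 were tested, 4 rose and none fell, with a median log2 fold change of 0.28. At an unadjusted p under 0.05 in edgeR 2 were lower, and DESeq2 called 1 lower. Over all genes, 4277 of 16729 had such an unadjusted p, in either direction, and DESeq2 called 1071 lower. With the replicate block 7 rose and 2 fell, the latter being Cdx1 (-1.67, edgeR adjusted p = 0.000589) and Tbx6 (-0.89, edgeR adjusted p = 0.0309), both factors of posterior and mesodermal development. Cdx4, a caudal gene like Cdx1, was among the 7 that rose (1.75, edgeR adjusted p = 0.00405). Cdx1, Tbx6 and Cdx4 were sparsely counted, at 4 to 41, 12 to 42 and 4 to 32 counts per sample. Ccn4 (WISP1), a matricellular protein first described as Wnt-induced, had 0.821, 0.767 and 1.22 CPM in the controls and 2.88, 3.48 and 5.66 CPM with ICF (log2 fold change 2.09 ± 0.35 SE, edgeR adjusted p = 0.006). Jag1, a Notch ligand, rose from 9.58 ± 1.37 to 16.6 ± 1.68 CPM (SD, n = 3; edgeR adjusted p = 0.00909). Cd44, the hyaluronan receptor, rose from 12.8 ± 1.87 to 18.7 ± 2.32 CPM (SD, n = 3; edgeR adjusted p = 0.0458). Ccnd1, the G1 cyclin D1, rose from 106 ± 6.13 to 133 ± 2.91 CPM (SD, n = 3; edgeR adjusted p = 0.0163). These genes answer to other signals as well, and 17 of the 21 did not pass in the fit without the block.

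Of 18 other ligands 8 were tested, and Wnt11, a ligand mostly linked to noncanonical signaling, fell by 0.89 on the log2 scale (edgeR adjusted p = 0.0461), while with the block 1 was called higher and 1 lower. Of 22 genes for Wnt secretion and extracellular modulators 16 were tested, 1 rose and 2 fell, against 4 and 2 with the block. Porcn, the acyltransferase that attaches the lipid which Wnt proteins need for secretion, had 84.7, 78.1 and 59.1 CPM in the controls and 38.3, 33.9 and 27.1 CPM with ICF. All loaded samples were below all controls, at a log2 fold change of -1.16 ± 0.22 (SE, edgeR adjusted p = 0.00395). Frzb, a secreted Wnt antagonist, fell by 1.10 on the log2 scale (edgeR adjusted p = 0.0418), and Sfrp5, another secreted antagonist of the same family, rose by 0.78 (edgeR adjusted p = 0.0178).

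The receptors and the destruction complex held mostly small differences. Of 21 receptors and turnover genes tested, Ror1, a receptor for Wnt5a, passed without the block, with a log2 fold change of 0.61 (edgeR adjusted p = 0.0474). With the block 3 were called higher (Ror1 and the Frizzled receptors Fzd3 and Fzd10) and 2 lower (Fzd6 and Ror2). Of 18 genes of the destruction complex and Dishevelled, Apc2 rose by 0.66 (edgeR adjusted p = 0.0243) and Csnk1e, a casein kinase that phosphorylates Dishevelled, fell by 0.44 on the log2 scale (edgeR adjusted p = 0.0451), and the block gave 2 higher and 1 lower. Of the 8 partners of beta-catenin at adherens junctions, 0 passed in edgeR without the block (2 higher at an unadjusted p under 0.05) or in DESeq2. With the block the cadherins Cdh2 (log2 fold change 0.35, edgeR adjusted p = 0.0151) and Cdh3 (0.22, edgeR adjusted p = 0.00926) were called higher and Vcl, vinculin, lower (-0.16, edgeR adjusted p = 0.0254).

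Of 17 nuclear partners of beta-catenin, 2 rose and 1 fell, against 5 and 2 with the block. Cby1, an antagonist that binds beta-catenin, had a log2 fold change of 0.48 (edgeR adjusted p = 0.0125). Bcl9l, a coactivator, also had a log2 fold change of 0.48 (edgeR adjusted p = 0.0111). Sox17, an endoderm factor that can bind beta-catenin, fell by 0.34 on the log2 scale (edgeR adjusted p = 0.0445). The remaining TCF/LEF factors passed in neither fit, and without the block Tcf7 had a log2 fold change of -0.11 (edgeR adjusted p = 0.413) and Tcf7l2 one of 0.11 (edgeR adjusted p = 0.389). Differences between the changes of these genes and of Lef1 were not tested.

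**Figure D4:**
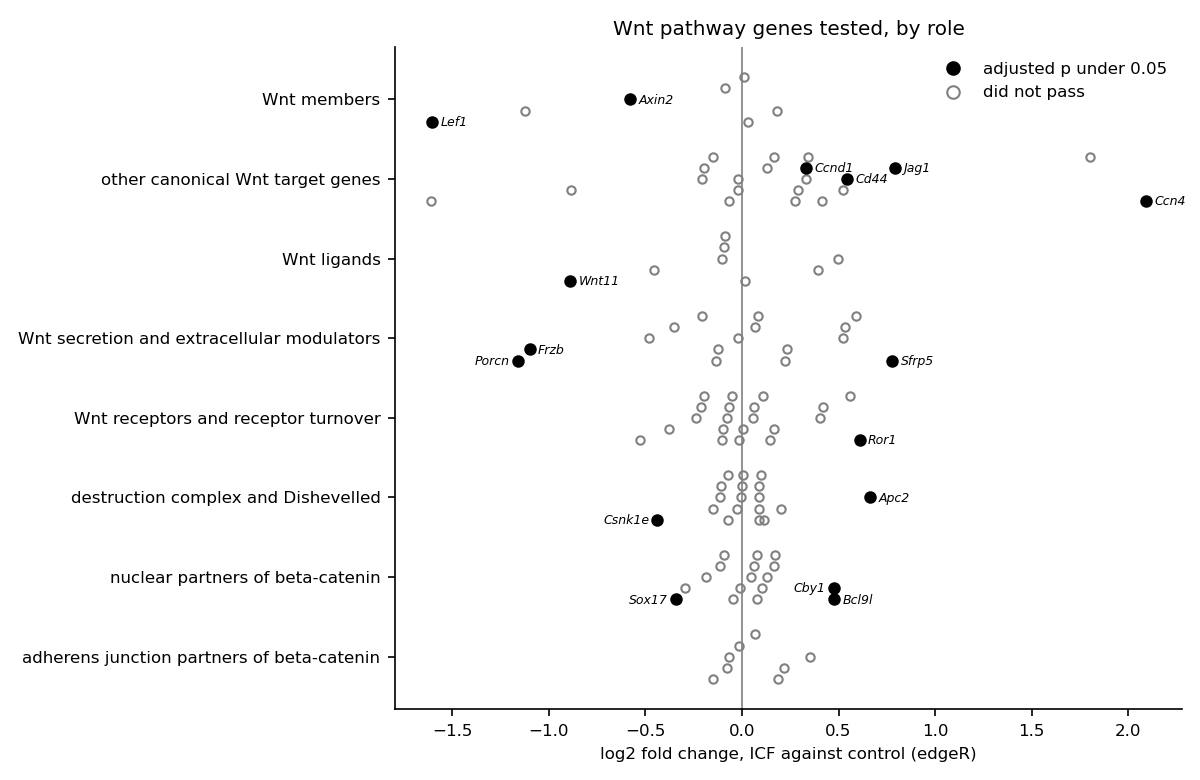
Log2 fold change with ICF (x axis, edgeR; 0 is no difference) of each tested gene of the 8 lists by role, with 1 point per gene and a small vertical offset for visibility; black points have an adjusted p under 0.05. Lef1 (-1.60) and Axin2 (-0.58) lie left of 0, and the 4 called genes among the other canonical targets lie right of it, up to Ccn4 at 2.09.

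Markers of the cell types in these cultures were set beside the members. Their counts stand beside 3.47% of all genes tested called higher and 4.38% lower, or 14.6% and 15.3% with the block. Counts at an unadjusted p under 0.05 stand beside 4277 of all 16729 genes tested, in either direction. Retinoic acid response genes summed to 114 to 119 CPM in the controls and 93.4 to 96.6 CPM with ICF, without overlap, and 3 of the 11 tested fell, with Crabp2 also called higher under the block (0.47, edgeR adjusted p = 0.0254): Stra6, a retinol transporter receptor, by 1.21, Stra8, a gene of germ cells, by 0.98 and Cyp26a1, which degrades retinoic acid, by 0.70 on the log2 scale (edgeR adjusted p = 0.00691, 0.00623 and 0.00519). Neural markers summed to 172 to 180 CPM and 150 to 169 CPM, also without overlap. Most of that sum was Tubb3 (mean 75.8 CPM in the controls, 64.8 CPM with ICF) and Otx2 (39.9 and 28.7 CPM). Both were below every control in every ICF sample. Nes (8.65 and 12.2 CPM) and Map2 (10.9 and 13.9 CPM) were above every control in every ICF sample. Over all genes tested these shares were 15.7% below and 15.6% above. The median log2 fold change of the neural markers was -0.03. Of the 8 tested 0 passed in edgeR (2 higher and 2 lower at an unadjusted p under 0.05, and 1 each way called in DESeq2), and 2 were called higher and 2 lower with the block. Of the 12 pluripotent cell markers 1 fell (4 with the block), Tdgf1, a coreceptor for Nodal, from 722 ± 88.9 to 411 ± 36.5 CPM (SD, n = 3; edgeR adjusted p = 0.00283), while Pou5f1 was at 841 ± 57.2 and 817 ± 70.4 CPM. Primitive streak markers, among them known Wnt-responsive genes, summed to 47.7 to 53.1 CPM and 44.0 to 49.0 CPM, lower with ICF in all 3 pairs. Most of that sum was Eomes, also listed as a trophectoderm marker (mean 31.3 CPM in the controls, 27.1 CPM with ICF), and Fgf17 (15.5 and 15.3 CPM). A log2 fold change below 0 was seen in 4 of the 8 tested, and their median was 0.08. Of the 8 tested 0 passed in edgeR without the block (1 lower at an unadjusted p under 0.05) or in DESeq2, and 2 were called lower with the block, Tbx6 and Eomes (-0.21, edgeR adjusted p = 0.0213). Of the 10 endoderm markers, Amn, a coreceptor of cubilin, fell by 0.44 on the log2 scale (edgeR adjusted p = 0.0175), as did Sox17 above, while the block called 3 higher and 3 lower. The call of Amn was lost without control replicate 1 and without ICF replicate 1 (edgeR adjusted p of up to 0.0891). Of the 11 fibroblast, mesenchymal and feeder markers tested, the collagen genes Col1a1 (log2 fold change 0.75, edgeR adjusted p = 0.0216) and Col3a1 (0.73, edgeR adjusted p = 0.0482) rose and none fell, against 4 and 1 with the block. Col3a1 lost its call without each of the 6 samples (edgeR adjusted p of up to 0.155), and Col1a1 without control replicate 1, ICF replicate 1 or ICF replicate 2 (up to 0.0835). Their list summed to 902 to 1120 CPM and 837 to 1020 CPM, lower with ICF in all 3 pairs. Most of that sum was Fn1, fibronectin, at a mean of 775 CPM in the controls and 660 CPM with ICF. Only 2 of the 11 had a log2 fold change below 0, and the median of the 11 was 0.13. The part of these cell types and of the retinoic acid response in the Lef1 and Axin2 results was not tested.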

How the data were processed

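Total RNA of 6 samples was made into strand-specific mRNA libraries and sequenced (NextSeq, 75 cycles). Per the labels and the study's methods, the authors checked reads with FastQC, trimmed them with Trimmomatic, used HISAT2 for alignment and obtained gene counts from HTSeq. The deposited values are whole-number counts per gene, not normalized. The submitters' processing notes list bcl2fastq 2.19 and the builds hg38 and GRCm38 without roles. The HTSeq strand setting is not given in the sources used here. HTSeq leaves out reads placed at several sites (29.5% to 31.3% of reads), which undercounts near-identical genes. Its summary lines (also no feature, 4.09% to 6.24%, and ambiguous, 0.898% to 0.96%) were kept out of library sizes and tests.

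Gene names and coordinates came from GENCODE M21 (GRCm38), which held 50462 of the identifiers. The groups were compared in R 4.3.3 by edgeR 4.0.16 (quasi-likelihood test, TMM normalization, filterByExpr by group, Benjamini-Hochberg adjustment over all 16729 genes tested, threshold 0.05). The procedure was also run on simulated counts with the same dispersion for every gene, taken from the fit to these data. Those counts had no donor differences and no steps of 4, so they cannot show how the test behaves with such features. CPM are TMM-normalized. Standard errors come from the SDs of log2 CPM (prior count 0.5) and not from the fit. Depth was 28711166 to 34194413 counts per sample; intervals and floors from counts cover counting error only. Nothing in the labels says that samples are separate cultures, although the methods speak of independent experiments. The p-values therefore judge the group difference against the spread between these samples. Without the block, that spread includes differences between the numbered donors.

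Donor numbers in the labels pair the samples. Deviations from the group means correlated at 0.128, 0.174 and 0.319 for same-numbered samples and at -0.305 to 0.229 otherwise. The numbers also entered a fit as a block. Other settings were RLE size factors, DESeq2 1.42.0, a loose filter (any count), a strict filter (at least 10 counts in every sample), the counts of ICF replicate 3 divided by 4, and each sample left out in turn. Leaving out replicate 3 of both groups was added after seeing the data. The members and gene lists were chosen with earlier results of these data known. Named were all members, the genes of the Wnt lists past the threshold (at most 5 per list), marker genes past it (at most 3 per list) or at the highest level, and for Axin2 and Lef1 the 3 genes of most similar pattern with a mean of at least 100 counts. A planned comparison of TCF/LEF proteins was not run, since protein sequences were not used here. Tcf7, Tcf7l2, Cdx1, Cdx4, Dkk1, genes called only with the block and genes that overlap a member were named after their values were seen. The real-time PCR, protein and cell cycle measurements were not analysed here.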

Additional observations from a re-analysis of the deposited data

How the results depend on the processing

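The reported values were recomputed under 13 other settings, 6 of which leave out 1 sample. The cause of the changes was not tested, except that fewer samples entered some fits. Lef1 passed in all 13, at -1.87 with replicate 3 of both groups left out. Axin2 passed in 11, and lay between -0.65 and -0.50 with 1 sample left out. With the replicate block (paired fit), 2445 genes were called higher and 2561 lower, against 580 and 733, and 23 and 11 of the other Wnt pathway genes, against 9 and 5. In that paired fit Sp5 (-1.10) and Tcf7l1 (0.18) passed, giving 1 member higher. It changed no other member's call. With replicate 3 of both groups left out, a choice made after seeing the data, 2466 genes were called higher and 2627 lower, 20 and 12 of the other Wnt genes, 1 member higher (Tcf7l1, 0.16) and Sp5 at -1.15. DESeq2 called 877 genes higher. With 1 sample left out, genes called higher ranged from 85 to 724 and lower from 215 to 928, members called lower from 1 to 2, and other Wnt genes called higher from 1 to 9 and lower from 1 to 4.

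Direction turned in 2 members that did not pass. Cdx2 was at -0.10 with the counts of ICF replicate 3 divided by 4, and between -0.27 and 0.40 with 1 sample left out, below 0 without control replicate 1 (-0.14), control replicate 2 (-0.16) or ICF replicate 3 (-0.27). Nkd1 ranged from -0.20 to 0.023, above 0 without control replicate 2. Sp5 ranged from -1.30 to -0.70 and Tcf7l1 from 0.08 to 0.27. Sp5 gave no adjusted value in DESeq2 and did not enter under the strict filter. With 8 to 38 counts per sample for Sp5 and 3 to 24 for Wnt3, depth limits both. The 8 for Sp5 and the 24 for Wnt3 are from ICF replicate 3, where 4 divided 89% of counts above 0. That library had 20802 genes with a count, against 24340 to 24889 in the others, so its total may overstate its depth.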

Other observations

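Over the 6 samples and among the 11925 genes averaging 100 counts or more, the genes whose log2 CPM followed Lef1 most closely were Pfkfb3, a regulator of glycolysis, Prss35, a serine protease, and Pnrc1, a nuclear coregulator, each with a Pearson r of 0.9982. Their log2 fold changes with ICF were -1.41, -1.13 and -0.55. Those closest to Axin2 were Ralgds, an exchange factor for Ral, with r of 0.9987, Pde7a, a cAMP phosphodiesterase, with r of 0.9982, and Sgtb, a co-chaperone, with r of 0.9964. Their log2 fold changes were -0.23, -0.20 and -0.38. These r values are descriptions over samples that fall into 2 groups, so the difference between the groups enters each r, and no test was made.

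Several caudal and inhibitor genes among the other canonical targets passed under some of the settings only. Of these, Cdx1 and Cdx4 were sparsely counted. Cdx1 had 37 to 41 counts in the controls and 4 to 25 with ICF, and Cdx4 had 4 to 7 and 15 to 32, so depth limits both. Cdx1 had a log2 fold change of -1.61 (edgeR adjusted p = 0.0632) and Cdx4 one of 1.80 (edgeR adjusted p = 0.056), opposite in sign, while Cdx2 was at 0.01. Dkk1, a secreted inhibitor of the LRP receptors, had a log2 fold change of 0.52 (edgeR adjusted p = 0.0513). In DESeq2, Cdx1 passed at -1.63 (adjusted p = 0.0213) and Dkk1 at 0.52 (adjusted p = 0.00363). In edgeR with the replicate block all 3 passed, Cdx1 at -1.67 (adjusted p = 0.000589), Cdx4 at 1.75 (adjusted p = 0.00405) and Dkk1 at 0.53 (adjusted p = 4.05e-08).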
